A study of Mus musculus with 4 samples.

Results

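The embryonic cerebellum was compared with the pontine nucleus, both of which hold neurons born in the rhombic lip. The comparison used 2 of the 4 arrays of the series, 1 Affymetrix array per region, each hybridised with RNA pooled from ICR mouse embryos of embryonic day 17.5. The cerebellum pool held tissue of 13 mice and the pontine nucleus pool tissue of 15. The tissue label of the latter is pontine nucleus, while its sample title names the pons. The tissue label is used here. Arrays of the olfactory bulb (14 mice) and the superior colliculus (16 mice) served as reference levels. ICR is an outbred stock, and the labels name no allele, transgene or treatment. Region and the number of mice were thus the only stated differences between the pools. Of 19938 genes with a singly named probe set, 10908 were compared, those whose highest level over the 4 arrays was above 8.56, the 50th percentile of all gene levels. Of these, 695 (6.37%) differed between the cerebellum and the pontine nucleus by at least 1 log2 unit, a 2-fold difference, which is the size rule used throughout. With 1 array per region there was no replicate error and no test, so a difference between regions cannot be told apart from a difference between single pooled preparations. In tissue RNA, fewer cells of a type and less RNA per cell cannot be told apart either.

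The rhombic lip is the dorsal edge of the hindbrain neuroepithelium, where progenitors express the bHLH factor Atoh1. Its rostral part, in rhombomere 1, gives rise to cerebellar granule cells, to projection neurons of the cerebellar nuclei and to unipolar brush cells. Its caudal part, further back in the hindbrain, gives rise to neurons that migrate along the surface to the ventral pons and form the pontine nuclei, the main source of mossy fibres to granule cells. Purkinje cells and the inhibitory interneurons of the cerebellum come instead from the cerebellar ventricular zone. Hox genes are expressed behind rhombomere 1, and the isthmus at the midbrain border patterns rhombomere 1 through fibroblast growth factors. Late in gestation granule cell precursors are dividing in the external granular layer under the influence of sonic hedgehog from Purkinje cells, while most pontine neurons have left the cell cycle.

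Levels are log2 signals, given below in the order cerebellum, pontine nucleus, olfactory bulb and superior colliculus. Differences are cerebellum minus pontine nucleus on the same scale. Each gene was measured by its own probes, so levels of different genes were not set against each other. A set of 207 vomeronasal receptor and beta defensin genes, none of them a brain gene, gave the background: 95% of their levels lay below 7.32, and 0 of them differed by 1 log2 unit. Where the lower level of a gene fell below 7.32, the printed difference is compressed by background. A list member that exceeded the floor through the cerebellar or the pontine array alone had to read higher there. Through the cerebellar array this applied to 3 granule cell, 3 bHLH, 2 Purkinje cell and 2 mitosis genes among the lists below. It also applied to 1 gene each of the rhombic lip, sonic hedgehog, Notch, DNA replication, Eph, leucine-rich repeat, immunoglobulin and radial glia lists. Through the pontine array it applied to 1 gene each of the rhombic lip, pontine neuron, glycinergic, retinoid, Wnt, netrin, neuropeptide and oligodendrocyte lists. It applied to 2 stress genes as well. Where it touches more of a list's count, it is given beside that list.

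The sequence before the start of Neurod1, the gene with the largest difference between the pools, is shown because Neurod1 is the clearest separation of these regions. The bHLH factors discussed below bind the letters CANNTG. The 250 bases upstream of Neurod1 (chr2:79456637-79456886, minus strand, GRCm38.p6, from RefSeq, 5′ to 3′) held 1 match, in capitals, 242 bases before the start.
Neurod1: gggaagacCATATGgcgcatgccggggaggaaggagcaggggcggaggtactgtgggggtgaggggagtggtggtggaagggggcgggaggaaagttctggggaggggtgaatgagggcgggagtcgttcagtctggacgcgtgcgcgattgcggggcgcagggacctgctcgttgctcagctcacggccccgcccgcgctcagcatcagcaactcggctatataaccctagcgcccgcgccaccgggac
These letters are common: 62.9% of 11346 windows of 300 bases around the starts of the compared genes held them on either strand. The match is a description of the sequence.

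More genes were higher in the cerebellum than in the pontine nucleus. The cerebellum was higher by at least 1 log2 unit for 490 genes (4.49% of those compared) and the pontine nucleus for 205 (1.88%). List counts below are to be read beside these shares, and a count near them says nothing particular about a list. At 2 log2 units, a 4-fold difference, the counts were 70 (0.642%) and 45 (0.413%). Most genes were alike: 6076 (55.7%) lay within 0.25 log2 units of each other and 8826 (80.9%) within 0.5, with a median difference of -0.04. In the other pairs of regions, which reuse these arrays, 493, 619, 623, 637 and 847 genes differed by the same rule. Only the pontine nucleus and olfactory bulb (847) differed in more genes than the hindbrain pair (695). The olfactory bulb lay nearest to the cerebellum by this count (493 genes).

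**Figure D1:**
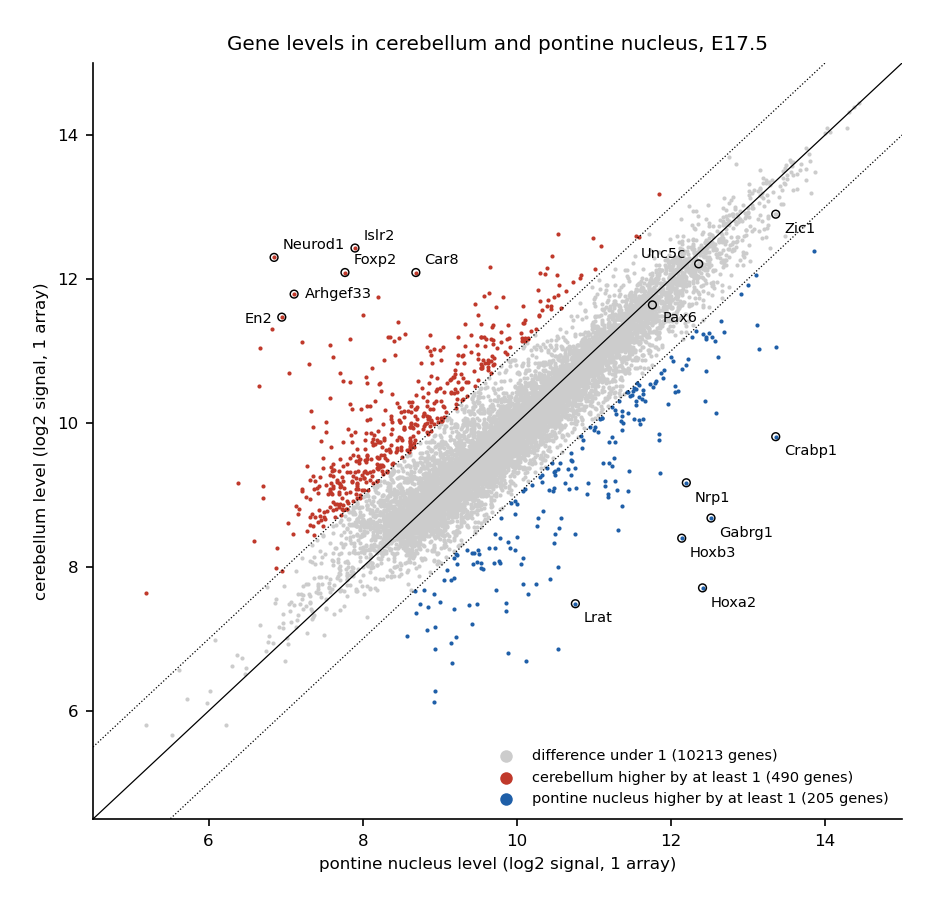
Gene levels (log2 signal) with the pontine nucleus on the horizontal axis and the cerebellum on the vertical axis, 1 point per gene and 1 array per region, with lines at a difference of 1 log2 unit. The 490 genes past the rule toward the cerebellum and the 205 toward the pontine nucleus flank a dense diagonal, with Neurod1 and Hoxa2 farthest from it.

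For most of these genes neither region stood alone among the 4. Of the 490 genes higher in the cerebellum, 63 had only a cerebellar level at least 1 log2 unit above both bulb and colliculus, 104 had only a pontine level at least 1 log2 unit below both, 3 had both features and 320 had neither. Of the 205 genes higher in the pontine nucleus, 83 had only a pontine level above both bulb and colliculus by that margin, 13 had only a cerebellar level below both, 4 had both and 105 had neither. Neurod1 is an example of the 104 and En2 of the 63, while most of the 490 had neither feature. Neurod1 was low in the pontine array, and En2 was high in the cerebellar array.

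Neurod1, a bHLH factor that drives granule cells and other glutamatergic neurons to differentiate, read 12.30, 6.85, 11.52 and 9.18. The pontine array was the low one and lay within background, 5.45 log2 units (43.7-fold) below the cerebellum. Among 24 bHLH genes above the level floor (28 measured, median difference 0.42), 4 passed the size rule toward the cerebellum and 0 toward the pontine nucleus. Atoh1, which marks rhombic lip progenitors and granule cell precursors, read 10.70, 7.70, 6.92 and 7.20, high in the cerebellum alone. Neurod4, a proneural factor, read 9.16, 6.38, 8.48 and 7.17, and Neurog2, another, read 9.01, 7.91, 9.94 and 8.36. The family did not move as a block. Neurod2, a factor of maturing glutamatergic neurons, read 11.41, 12.22, 11.15 and 9.58, and Nhlh1, found in newly born neurons, read 10.68, 10.51, 8.97 and 7.52. The last pair, picked after their values were seen, were as high in the pontine nucleus as in the cerebellum or within 1 log2 unit of it.

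Most listed genes of rhombic lip lineages read higher in both hindbrain arrays than in bulb and colliculus. Others did not, and Lhx2 and Lhx9, given below, were lower in both hindbrain arrays. The list was written with earlier results of these data known, so its count is a description. Of 28 measured members of that list, 25 were above the floor, and 15 of the 25 read higher in both hindbrain arrays than in bulb and colliculus, where 1172 of all compared genes (10.7%) did. Within the pair, 4 members passed the size rule toward the cerebellum and 6 toward the pontine nucleus, with a median difference of -0.46, or -0.24 over all measured members. Zic1, a zinc finger factor of the dorsal neural tube, read 12.90, 13.36, 12.14 and 12.42. Pax6, a homeodomain factor of migrating rhombic lip cells, read 11.64, 11.76, 11.05 and 9.58. Neither reached the size rule between the hindbrain arrays, and both were highest in them. Toward the cerebellum were Atoh1, Lhx9 (9.06, 7.21, 9.36 and 11.68), a LIM homeodomain factor of the cerebellar nuclei, Mab21l1 (11.50, 10.29, 9.49 and 11.27) and Dcc (12.14, 11.01, 11.76 and 11.31), the netrin receptor. Toward the pontine nucleus the largest differences were those of Mab21l2 (11.06, 13.37, 7.73 and 12.51), Nfix (12.39, 13.86, 10.89 and 11.58) and Lhx2 (8.40, 9.78, 11.59 and 11.31). Barhl1, a homeodomain factor downstream of Atoh1, followed at 11.25, 12.50, 8.05 and 10.84. Nfix belongs to the nuclear factor I family, of which Nfib (12.74, 13.72, 11.90 and 11.72) and Nfia (12.47, 12.77, 11.63 and 11.04) were also highest in the pontine array but short of the rule. The other Nfib probe set, with a cerebellar level of 11.15 and a pontine level of 12.91, passed it with a difference of -1.76.

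Genes high in both regions and low in the others were few. In 17 genes (0.156%) both hindbrain arrays lay at least 1 log2 unit above bulb and colliculus, and 15 of the 17 differed by under 1 log2 unit between cerebellum and pontine nucleus, 10 of them by under 0.5. Zbtb18, a transcriptional repressor of neurons, read 11.77, 11.76, 9.81 and 9.32. Unc5c, a netrin receptor that repels migrating rhombic lip cells, read 12.21, 12.36, 10.48 and 10.67. Both were almost level across the hindbrain pair. Zic5 read 12.22, 12.40, 9.21 and 10.91, Nhlh2 read 10.01, 9.76, 8.43 and 8.68, and Prdm8, a histone methyltransferase family member, read 11.28, 11.71, 8.88 and 9.62. Chd7, a chromatin remodeller, read 12.53, 12.70, 11.26 and 10.76. Fat2, a giant cadherin known from granule cells, read 9.71, 9.08, 7.34 and 7.49. Dach1, a nuclear factor, read 11.39, 11.90, 9.10 and 10.14, and Cyp26b1, which degrades retinoic acid, read 10.88, 9.98, 7.79 and 8.14. The others named were Ucma, a cartilage matrix protein (10.20, 8.91, 6.74 and 6.74), which did differ within the pair, Cadps2, a vesicle priming factor (10.13, 9.39, 8.14 and 8.05), and Smad3, a TGF-beta effector (10.30, 10.25, 9.10 and 8.93). Slc6a5, the neuronal glycine transporter, read 9.12, 8.78, 7.64 and 7.37, and Ndst3, a heparan sulfate enzyme, read 11.02, 11.02, 9.93 and 9.29. Meis1 (11.92, 12.42, 10.88 and 10.17), a homeodomain cofactor of Hox proteins, was also in the set, though its gap was narrower than those of the 15 named by rank.

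A larger set was low in both regions. For 45 genes (0.413%) both hindbrain arrays lay at least 1 log2 unit below bulb and colliculus. Of these, 37 differed by under 1 log2 unit within the pair, 29 by under 0.5. Such a gene can enter the comparison through bulb or colliculus alone, the arrays where it reads high. With the floor taken on the cerebellar and pontine arrays alone the set held 24 genes, and without a floor 48. Emx2, a homeodomain factor of the forebrain, read 6.70, 6.99, 10.13 and 9.81, within background in both hindbrain pools. Nr2e1, the tailless receptor of forebrain progenitors, read 7.17, 7.13, 9.53 and 8.84. Rpp25, an RNase P subunit, had the widest gap and read 8.14, 7.96, 11.31 and 11.03. Gabra5, a GABA-A receptor subunit, read 9.84, 9.74, 12.03 and 11.84, and Grm8, a metabotropic glutamate receptor, read 7.82, 7.71, 9.80 and 9.71. Hs3st3a1, a heparan sulfate sulfotransferase, read 6.63, 6.31, 8.94 and 8.58, and Fxyd7, a regulator of the sodium pump, read 9.97, 9.22, 11.70 and 11.72. Tac1, the substance P precursor, differed from these in also separating the pair, at 7.64, 5.19, 9.63 and 10.16.

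**Figure D2:**
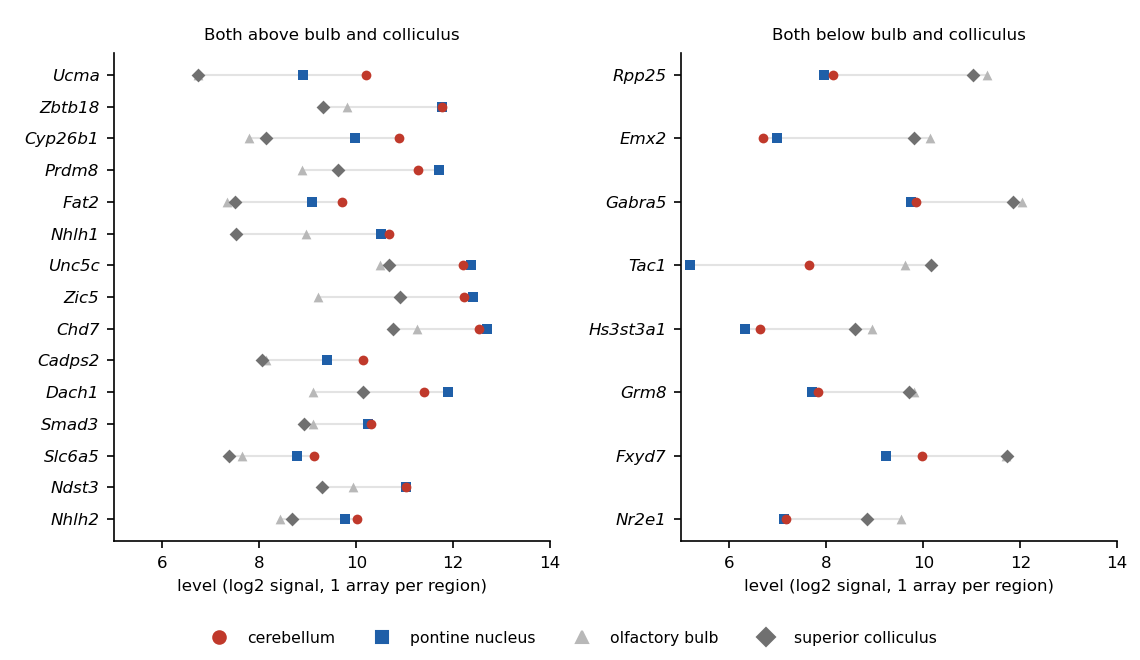
Levels (log2 signal, 1 array per region) of the genes named as high in both hindbrain regions (left, 15 genes) and as low in both (right, 8 genes), with 1 symbol per region. On the left the cerebellum and pontine nucleus lie at least 1 log2 unit to the right of bulb and colliculus, and on the right at least 1 log2 unit to the left; Ucma and Tac1 are the genes with the widest spread within the pair.

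Granule cell genes were mostly higher in the cerebellum. Of 29 members above the floor (32 measured), 13 passed the size rule toward the cerebellum and 2 toward the pontine nucleus, with a median difference of 0.53. After Neurod1, the largest differences were those of Mfap4, a matrix protein (11.75, 8.20, 9.75 and 8.47), Atoh1, and Boc, a sonic hedgehog co-receptor (11.40, 8.46, 9.98 and 9.74). Cbln1, which granule cells release to organise their synapses onto Purkinje cells, read 11.77, 9.58, 10.94 and 10.25, and Cxcr4, the chemokine receptor that holds precursors at the surface, read 11.01, 9.0, 9.86 and 9.01. The cerebellum was highest in all of these. The pair toward the pontine nucleus were Barhl1 and Kcnk9, a potassium leak channel (10.49, 11.52, 9.26 and 9.97). Gabra6 and Grin2c, receptor subunits of mature granule cells, stayed below the floor on all 4 arrays.

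Purkinje cell genes separated the regions further. Of 23 members above the floor (24 measured), 13 were higher in the cerebellum by the size rule and 1 in the pontine nucleus, and the median difference was 1.19. Foxp2, a forkhead factor of Purkinje cells, read 12.09, 7.77, 10.74 and 11.61, a difference of 4.32 with the pontine array low. Ebf2, a helix-loop-helix factor of a Purkinje subset, read 11.08, 7.58, 8.0 and 9.80. Car8, a carbonic anhydrase relative that binds the IP3 receptor, read 12.09, 8.69, 8.46 and 9.07, high in the cerebellum alone. Rora, the nuclear receptor lost in the staggerer mouse, read 11.18, 8.47, 9.41 and 10.36. Calb1, the calcium buffer calbindin, read 11.81, 9.64, 7.86 and 9.63. Skor2, a corepressor restricted to Purkinje cells in the cerebellum, read 9.13, 6.70, 7.11 and 7.16, and the pontine level was within background. Prkg1, a cGMP-dependent kinase, was the member higher in the pontine nucleus, at 8.26, 9.91, 8.08 and 8.87. Genes of the GABAergic progenitors of the ventricular zone had a median of 1.83 over 8 members above the floor (11 measured, 1.10 over all), with 6 toward the cerebellum and 0 toward the pontine nucleus. For 2 of the 8, the cerebellar array alone exceeded the floor. Tfap2b and Tfap2a, AP-2 factors of these progenitors, read 11.30, 6.82, 7.53 and 12.88, and 11.04, 6.67, 7.84 and 9.90. Pax3 (10.59, 7.75, 7.12 and 9.75) and Pax2 (10.23, 8.06, 7.94 and 8.01), paired box factors of progenitors and of young interneurons, followed. Of these 4, the superior colliculus shared the high level of all but Pax2.

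Genes of the cerebellar nuclei and unipolar brush cells, the other rhombic lip products of the cerebellum, had 3 of 13 members toward the cerebellum and 1 toward the pontine nucleus (median 0.55). Eomes (Tbr2), the T-box factor of unipolar brush cells, read 10.51, 6.66, 12.21 and 6.85, within background in the pontine nucleus and colliculus. Tbr1, of cerebellar nuclear neurons, read 7.98, 6.87, 12.22 and 6.75. It exceeded the floor in the bulb alone, and its pontine level was within background. Lhx9 is given above. The member on the other side was Slc17a6, the vesicular glutamate transporter VGLUT2, at 10.50, 11.77, 11.75 and 12.22. Isthmus and rhombomere 1 genes also lay toward the cerebellum, with 8 of 20 members above the floor (26 measured) against 2 (median 0.77, or 0.50 over all measured). En2, Cnpy1, Pax2 and En1, 4 of the 8, exceeded the floor through the cerebellar array alone and so had to read higher there. En2, the engrailed factor of the midbrain and rhombomere 1, read 11.47, 6.95, 7.26 and 7.44, high in the cerebellum alone. Otx2 read 10.70, 7.04, 8.56 and 11.93, and in the cerebellum it is known from granule cell precursors. Cnpy1, an FGF signalling modulator of the isthmus, read 10.91, 7.62, 7.72 and 7.51, and Fgf15 read 10.55, 8.23, 10.27 and 9.55. Irx2 (10.72, 12.45, 8.70 and 10.77) and Irx1 (9.73, 11.28, 8.51 and 9.85), Iroquois factors, were the members higher in the pontine nucleus.

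Among the 15 genes with the largest cerebellar excess, several belonged to none of these lists. Arhgef33 ranked next after Neurod1 and read 11.79, 7.11, 6.83 and 7.04, so only the cerebellum was above background. Ndnf, a secreted neurotrophic protein, read 11.13, 7.21, 10.95 and 8.11, and Pgm5, a phosphoglucomutase relative of cell junctions, read 10.82, 7.30, 8.30 and 6.93.

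**Figure D3:**
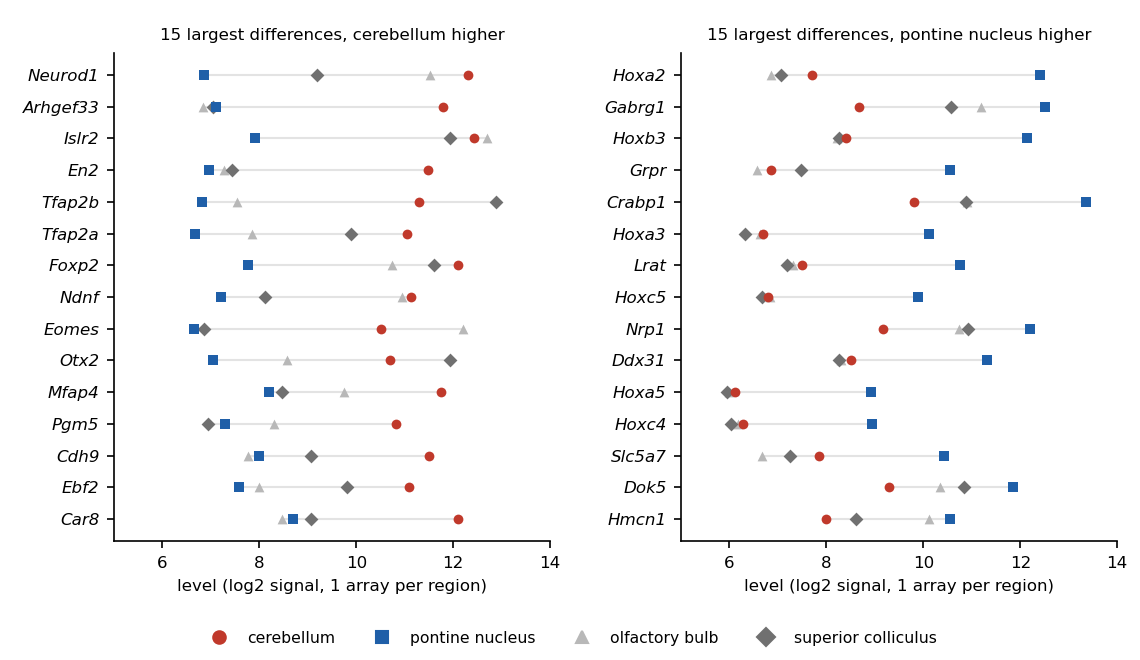
Levels (log2 signal, 1 array per region) of the 15 genes with the largest difference toward the cerebellum (left) and the 15 toward the pontine nucleus (right), 1 symbol per region. In the left panel the pontine symbol lies between 6.66 and 8.69, and bulb or colliculus shares the cerebellar level for genes such as Islr2 and Foxp2, while the Hox genes on the right are high in the pontine array alone.

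Hox genes marked the pontine nucleus. Of 37 measured, 11 were above the floor, all 11 of them through the pontine array alone, and all 11 were higher there by 1.59 to 4.70 log2 units. Because that array alone brought them into the comparison, their direction, and with it the median of -2.66, follows from the floor, and the median over all 37 was 0.13. Hoxa2, which sets the identity of the hindbrain behind rhombomere 1 and guides pontine neurons, read 7.71, 12.41, 6.85 and 7.07, a 26.0-fold difference. Hoxb3 read 8.40, 12.14, 8.22 and 8.25, Hoxa3 read 6.69, 10.12, 6.63 and 6.32, and Hoxc5 read 6.80, 9.88, 6.83 and 6.68. Hoxa5 (6.12, 8.92, 5.98 and 5.94) and Hoxc4 (6.28, 8.94, 6.17 and 6.04) were also among the 15 largest, and Hoxb2, Hoxd3, Hoxb4, Hoxb5 and Hoxa4 completed the 11. All 11 were of paralogue groups 2 to 5, and for each the other 3 arrays lay below the floor. Hoxa2 read somewhat higher in the cerebellum (7.71) than in bulb (6.85) and colliculus (7.07). The 26 measured Hox genes below the floor included every measured member of groups 6 to 13, and their pontine levels ran from 6.25 (Hoxc11) to 8.19 (Hoxb1).

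The 250 bases upstream of Hoxa2 (chr6:52164832-52165081, minus strand, GRCm38.p6, from RefSeq, 5′ to 3′) are shown because this gene had the largest pontine excess. Capitals mark a match to TGATTNAT, the letters bound by Hox and Pbx proteins together, read here on the opposite strand and lying 111 bases before the start.
Hoxa2: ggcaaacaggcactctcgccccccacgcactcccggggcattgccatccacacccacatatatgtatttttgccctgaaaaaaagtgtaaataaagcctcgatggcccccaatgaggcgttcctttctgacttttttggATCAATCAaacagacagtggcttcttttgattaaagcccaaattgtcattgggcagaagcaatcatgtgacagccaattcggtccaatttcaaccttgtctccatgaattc
Of all 11346 windows, 1.31% held these letters, against 2.38% of the 210 windows of genes higher in the pontine nucleus and 2.59% of the 501 windows of genes higher in the cerebellum. Of the Hox genes above the floor, 6 had a window, and 1 of those windows, that of Hoxa2, held a match.

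The cofactors with which Hox proteins bind DNA were not specific to either region. Of 8 measured, 1 passed the size rule: Pbx3, at 12.46, 11.09, 13.00 and 12.85, was lowest in the pontine nucleus. Meis2 read 11.06, 11.79, 12.93 and 12.16, and Meis3 read 9.77, 10.31, 10.15 and 10.43. Retinoic acid sets Hox expression in the hindbrain. In a list of hindbrain segmentation and retinoid genes, 3 passed the size rule toward each region among 14 above the floor (22 measured), and 11 of the 14 read higher in the cerebellum by any amount. Crabp1, a cytoplasmic retinoic acid binding protein, read 9.81, 13.36, 10.91 and 10.87, Lrat, which esterifies retinol for storage, read 7.49, 10.76, 7.32 and 7.18, and Rarb, a receptor, read 7.96, 9.09, 8.19 and 8.63. All 3 were highest in the pontine nucleus, and Lrat, above the floor in that array alone, had to be. In the cerebellum, Dhrs3, which reduces retinal, read 11.19, 8.33, 8.45 and 9.33, Rxrg, a retinoid X receptor, read 9.97, 8.71, 9.0 and 8.84, and Stra6, the retinol uptake receptor, read 9.19, 8.19, 9.23 and 8.34. The enzymes that make retinoic acid, Aldh1a1, Aldh1a2 and Aldh1a3, stayed below the floor on all 4 arrays.

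A list of genes reported in pontine neurons gave no common direction, with 3 of 25 members toward the cerebellum, 6 toward the pontine nucleus and a median of -0.17. Besides Lhx2, Slc17a6 and Barhl1, Robo3, the receptor that lets axons cross the midline, read 7.82, 9.05, 7.25 and 7.11, above the floor in the pontine array alone. Cntn2 (TAG-1), an adhesion protein of tangentially migrating precerebellar neurons, read 10.54, 11.73, 11.82 and 10.48. Cdh11 (12.02, 10.82, 11.51 and 11.58), Pou3f2 (9.82, 8.65, 10.71 and 10.45) and Dcc were the members higher in the cerebellum. Ddx31, an RNA helicase, was among the 15 largest pontine differences at 8.51, 11.31, 8.30 and 8.25, and in the RefSeq gene order it lies next to Barhl1. Dok5, an adaptor of receptor tyrosine kinases, read 9.30, 11.86, 10.34 and 10.83. Hmcn1, a matrix protein of the hemicentin family, read 8.0, 10.54, 10.12 and 8.62 in its brightest probe set, and the mean over its probe sets gave a smaller difference of -1.42.

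Genes of cell division were higher in the cerebellum nearly without exception. Of 29 mitosis genes above the floor (32 measured), 27 passed the size rule toward the cerebellum and 0 toward the pontine nucleus, with a median difference of 1.57. Bub1, a spindle checkpoint kinase, read 10.30, 8.16, 9.61 and 7.99, Ect2, which drives the cleavage furrow, read 10.95, 8.88, 10.45 and 8.74, and Kif11, the spindle motor Eg5, read 11.05, 9.04, 10.61 and 8.68. Mki67 (Ki-67), the usual marker of cycling cells, read 11.50, 9.50, 10.93 and 9.27. In each of these the olfactory bulb, where neurons and glia are also still produced, came next and the pontine nucleus and colliculus were low. Top2a, which untangles DNA, read 10.83, 8.76, 10.31 and 8.5 in its brightest probe set, and its other probe set was within background. The members short of the rule were Birc5 (8.71, 7.77, 8.64 and 7.44) and Racgap1 (10.69, 9.77, 10.40 and 9.65).

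DNA replication genes differed by less but in the same direction. All 32 above the floor (35 measured) had a higher cerebellar level, 10 by the size rule, with 0 toward the pontine nucleus and a median of 0.81. Over all compared genes 4796 of 10908 had a higher cerebellar level. Mcm2, of the replicative helicase, read 10.95, 9.30, 10.27 and 9.08, Uhrf1, which maintains DNA methylation at the fork, read 10.02, 8.48, 9.32 and 8.41, Mcm6 read 10.30, 8.95, 9.52 and 8.68, and Tyms, which makes thymidylate, read 9.80, 8.47, 9.54 and 8.64. Rfc3 (9.70, 9.64, 9.69 and 9.38) and Gins1 (8.72, 8.71, 8.60 and 7.37), picked after their values were seen, were the nearest to no difference. Of cell cycle regulators, 9 of 22 above the floor were toward the cerebellum and 1 toward the pontine nucleus. Cdk6 (10.62, 8.96, 9.96 and 9.26), Mycn (10.93, 9.68, 10.29 and 9.80), Ccnd2 (11.96, 10.73, 12.18 and 10.22) and E2f8 (9.34, 8.13, 9.16 and 7.75) were the largest. Myc, unlike its relative Mycn, was higher in the pontine nucleus, at 10.03, 11.35, 10.87 and 10.82.

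Promoter sequences of replication genes held the letters of the E2F motif more often than promoters at large. The letters TTTGGCGC or TTTCGCGC, on either strand, were in 9 of 29 windows of the replication genes (31.0%, 25 of 32 genes had a window), in 1.5% of all windows, in 3.19% of windows of genes higher in the cerebellum and in 0.952% of those higher in the pontine nucleus. E2F factors switch on these genes as cells enter S phase. Stretches upstream of the start with such matches (GRCm38.p6, RefSeq, 5′ to 3′, capitals mark the match) are shown for helicase subunits Mcm6 (chr1:128359715-128359845, minus strand) and Mcm5 (chr8:75109326-75109397, plus strand), and for Uhrf1 (chr17:56304098-56304165, plus strand) and Pola1, of the priming polymerase (chrX:93632256-93632323, minus strand).
Mcm6: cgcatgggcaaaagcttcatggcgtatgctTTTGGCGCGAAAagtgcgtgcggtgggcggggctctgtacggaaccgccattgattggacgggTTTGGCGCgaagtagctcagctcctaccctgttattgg
Mcm5: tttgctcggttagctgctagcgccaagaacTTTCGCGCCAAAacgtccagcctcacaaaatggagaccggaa
Uhrf1: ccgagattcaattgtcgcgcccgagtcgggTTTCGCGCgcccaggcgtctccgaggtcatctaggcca
Pola1: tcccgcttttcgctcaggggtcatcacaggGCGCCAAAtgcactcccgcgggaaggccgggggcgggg
In Mcm6 and Mcm5 a match on each strand overlapped to form the longer capital runs. Levels were 10.84, 9.59, 10.34 and 9.43 for Mcm5 and 8.98, 8.54, 8.85 and 8.26 for Pola1, so a gene with the letters could pass the size rule or miss it. Mitosis genes, which differed more, held them in 1 of 27 windows (3.7%).

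Sonic hedgehog pathway genes shared the cerebellar direction, with 8 of 11 members above the floor (14 measured) past the size rule toward the cerebellum, 0 toward the pontine nucleus and a median of 1.25 (1.09 with members below the floor). After Boc came the transcription factors Gli3 (9.86, 8.04, 10.01 and 10.02) and Gli2 (9.76, 8.18, 9.0 and 8.66), and the antagonist Hhip (8.61, 7.03, 7.73 and 8.99). Gli1, a target that reports pathway activity, read 9.33, 8.25, 8.55 and 8.49. It exceeded the floor of 8.56 through the cerebellar array alone and so had to read highest there. The signal transducer Smo, at 11.28, 10.18, 10.66 and 10.21, was also highest in the cerebellum. The receptor Ptch1 (11.49, 11.02, 10.63 and 10.72) missed the rule, and the ligand Shh stayed below the floor on all 4 arrays. Notch genes had 3 of 21 toward the cerebellum, among them Notch2 (10.01, 8.38, 9.97 and 8.80), a receptor of granule cell precursors, and 0 toward the pontine nucleus. Wnt genes had 6 of 26 toward the cerebellum, led by the secreted inhibitor Sfrp2 (11.24, 8.55, 9.71 and 10.65), and 1 toward the pontine nucleus, the inhibitor Dkk2 (7.85, 9.19, 7.49 and 7.88). Dkk2 exceeded the floor through the pontine array alone and so had to read higher there. In the BMP list 1 of 24 passed, Gdf10, a ligand found in Bergmann glia, at 11.20, 8.35, 11.08 and 9.21.

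**Figure D4:**
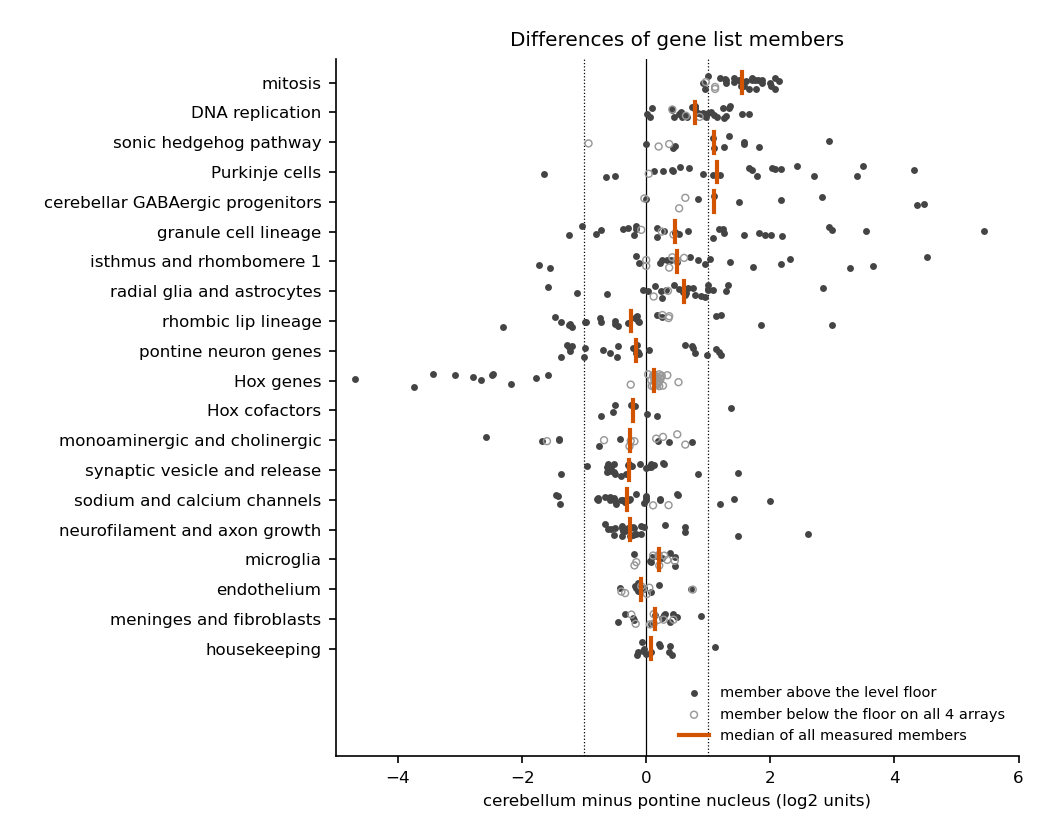
Difference (cerebellum minus pontine nucleus, log2 units, 1 array per region) of each measured member of 20 gene lists, filled above the level floor and open below it, with the median of all measured members as a bar and dotted lines at 1 log2 unit. Mitosis genes all lie to the right of 0, while Hox genes split into a pontine group past the rule and a group near 0 that was below the floor, and the microglia, endothelium and meninges lists centre near 0.

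Guidance receptors and adhesion proteins differed gene by gene. For all compared genes the shares past the rule were 4.49% toward the cerebellum and 1.88% toward the pontine nucleus. Islr2, a leucine-rich repeat protein of growing axons, read 12.43, 7.90, 12.70 and 11.93, so the pontine nucleus was the low region by 4.53 log2 units. In that list of leucine-rich repeat and Nogo receptor proteins, 8 of 31 above the floor were toward the cerebellum and 1 toward the pontine nucleus (median 0.43). Rtn4rl1, a Nogo receptor relative, read 10.56, 8.05, 10.59 and 11.06, and Islr, the relative of Islr2, read 9.75, 7.46, 9.65 and 8.27, with the pontine array again the lowest. Elfn2 was the exception at 9.10, 10.77, 9.63 and 10.09. Nrp1, the neuropilin that binds class 3 semaphorins and VEGF, was the largest difference the other way among guidance genes, at 9.17, 12.20, 10.73 and 10.92. Its relative Nrp2 (9.85, 10.24, 11.33 and 10.68) did not reach the rule. Semaphorins, plexins and neuropilins had 2 of 27 toward each region, with Plxna4 (11.04, 9.74, 10.11 and 11.60) and Sema5a (10.31, 9.02, 11.27 and 10.34) toward the cerebellum and Sema4f (8.91, 9.98, 9.46 and 9.32) beside Nrp1. Netrin, Slit and Robo genes had 4 of 21 toward the cerebellum and 1, Robo3, toward the pontine nucleus. Ntng1, a membrane-bound netrin, read 9.43, 7.79, 10.71 and 11.26, with a spread over its probe sets from 0.20 to 1.64, and Robo1 read 11.59, 10.44, 11.85 and 12.40. In the Eph list 1 of 19 passed in each direction, Epha6 (9.94, 8.64, 9.74 and 9.62) and Epha3 (10.12, 11.29, 10.95 and 9.11).

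Cadherins leaned toward the cerebellum, 8 of 26 above the floor against 2 (median 0.41). Cdh9, a classical cadherin of synaptic specificity, read 11.50, 8.0, 7.76 and 9.07, high in the cerebellum alone, and Cdh12 read 10.54, 8.21, 10.32 and 11.12, low in the pontine nucleus alone. Pcdh7 (10.30, 11.55, 11.19 and 11.12) and Cdh7 (10.56, 11.56, 10.54 and 10.25) were the members higher in the pontine nucleus. Immunoglobulin adhesion genes went both ways, 4 of 32 and 5 of 32. Mdga2 (10.92, 12.61, 10.79 and 11.75), a brake on neuroligin binding, Opcml (11.19, 12.46, 11.90 and 12.07) and Mdga1 (11.42, 12.65, 12.02 and 11.07) were highest in the pontine nucleus, while Kirrel2 (9.44, 7.95, 8.0 and 8.28) and Alcam (11.36, 9.88, 11.45 and 11.56) were higher in the cerebellum.

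Among GABAergic genes, 4 of 14 above the floor were toward the cerebellum and 2 toward the pontine nucleus. The synthetic enzymes Gad1 (11.03, 8.92, 11.51 and 11.57) and Gad2 (10.47, 9.20, 11.10 and 11.59) and the vesicular transporter Slc32a1 (9.34, 8.03, 9.35 and 9.27) were lowest in the pontine nucleus, below all 3 other arrays. Of the receptor subunits, Gabrg1 read 8.68, 12.52, 11.19 and 10.57, the largest pontine excess after Hoxa2, and Gabra2 read 10.31, 12.44, 11.97 and 11.50, both lowest in the cerebellum. The subunit Gabrb2 (11.48, 10.29, 11.45 and 12.25) was higher in the cerebellum. Of 6 glycinergic genes above the floor, 1 passed: Glra2, the fetal glycine receptor subunit, at 11.14, 12.57, 10.22 and 11.72. Glutamatergic genes had 3 of 25 toward each region. The NMDA receptor subunit Grin2b (10.43, 12.05, 11.42 and 11.89), VGLUT2 and the kainate subunit Grik3 (11.79, 12.91, 11.59 and 11.21) were higher in the pontine nucleus. The AMPA subunit Gria1 (10.94, 9.24, 11.79 and 11.69), Grm7 (10.05, 8.85, 9.36 and 10.71) and the glial transporter Slc1a3 (12.58, 11.58, 12.33 and 11.38) were higher in the cerebellum.

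Some cholinergic and serotonergic genes were higher in the pontine pool. Among 9 monoaminergic and cholinergic genes above the floor (18 measured), 4 were toward the pontine nucleus and 0 toward the cerebellum, and the median was -0.76 (-0.26 with members below the floor). Of the 4, Slc5a7, Slc18a3 and Slc6a4 exceeded the floor through the pontine array alone and so had to read higher there. The list's mean level over all 18 was 7.76, 8.22, 7.98 and 7.94. Slc5a7, the choline transporter, read 7.84, 10.43, 6.68 and 7.25, and Slc18a3, the vesicular acetylcholine transporter, read 8.09, 9.77, 8.12 and 8.05. Slc6a4, the serotonin transporter, read 7.45, 8.85, 7.45 and 7.41, and Th, tyrosine hydroxylase, read 8.07, 9.48, 11.33 and 7.76. Except for Th in the bulb, the pontine array alone was above the floor. Tph2, which makes serotonin, read 6.59, 8.19, 6.23 and 6.41, under the floor but highest in the same array, and Chat, the acetylcholine enzyme, read 7.24, 7.49, 7.24 and 7.13. Of 11 cranial motor neuron markers measured, 2 were above the floor, the shared genes Slc5a7 and Slc18a3. The other 9, Isl1, Mnx1 and Phox2a among them, stayed below the floor on every array. Which cells these readings came from was not tested, nor was their part in the other pontine differences.

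Neuropeptide genes had 2 of 24 above the floor in each direction, beside 4.49% (cerebellum) and 1.88% (pontine nucleus) of all compared genes. Grpr, the receptor for gastrin-releasing peptide, read 6.86, 10.54, 6.57 and 7.47, and Adcyap1, the peptide PACAP, read 8.85, 11.36, 8.34 and 9.45, both high in the pontine nucleus alone. Grpr exceeded the floor through that array alone and so had to read higher there. Tac1 and Sstr2, a somatostatin receptor (10.83, 9.23, 9.69 and 9.28), were higher in the cerebellum. Channel and synapse genes leaned toward the pontine nucleus by a little. Potassium channels had 4 of 35 toward each region (median -0.30), with Kcna2 (10.33, 11.63, 11.31 and 10.71) and Kcnh5 (9.36, 10.66, 10.47 and 9.68) toward the pontine nucleus and Kcnd3 (10.64, 9.19, 10.60 and 10.67) toward the cerebellum. Sodium and calcium channels had 3 of 30 toward each region (median -0.34). Cacna1c, an L-type calcium channel, read 9.90, 11.36, 10.87 and 10.58, and Scn9a, a sodium channel, read 9.28, 10.70, 8.82 and 9.53. Cacng5, an AMPA receptor auxiliary subunit, read 9.84, 7.85, 10.75 and 9.20.

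Vesicle genes had 1 of 26 in each direction (median -0.28), near the 4.49% and 1.88% of all compared genes toward cerebellum and pontine nucleus. They were Cplx2 (10.68, 9.20, 9.59 and 10.00) toward the cerebellum and Sv2b (10.81, 12.19, 11.80 and 10.38) toward the pontine nucleus. Postsynaptic genes had 3 of 28 toward the cerebellum and 2 toward the pontine nucleus, and the cerebellin family split: Cbln1 and Cbln2 (10.19, 7.86, 11.69 and 11.50) lay one way and Cbln4 (8.34, 10.48, 10.24 and 10.04) the other. Axon and neurofilament genes had 2 of 25 toward the cerebellum, Rnd3 (10.64, 8.04, 10.99 and 10.77), and Nefm (11.07, 9.59, 8.45 and 9.26), and 0 toward the pontine nucleus (median -0.26). General neuronal genes in that list, such as Tubb3 (12.38, 12.94, 12.64 and 12.64), Dcx (12.87, 13.26, 13.07 and 13.01) and Map1b (13.48, 13.87, 13.53 and 13.60), picked after their values were seen, were slightly highest in the pontine nucleus and short of the rule.

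Radial glia and astrocyte genes had 5 of 26 above the floor toward the cerebellum and 2 toward the pontine nucleus (median 0.63). Gdf10, Aldh1l1 (10.87, 9.56, 10.49 and 9.76), Sox9 (11.16, 9.87, 10.89 and 10.61) and Notch1 (11.14, 10.07, 11.02 and 10.40) were higher in the cerebellum, and Aqp4, the astrocyte water channel (9.09, 10.68, 8.10 and 9.25), and Fgfr3 (8.68, 9.80, 8.06 and 9.74) in the pontine nucleus. Among markers of oligodendrocytes (10 above the floor), microglia (9), endothelium (11), pericytes (7) and meninges (13), 0 passed the rule in either direction. Of 3 choroid plexus genes above the floor 1 passed, Otx2, and of 4 skeletal muscle and cartilage genes 1, Sox9. Both are also members of other lists given here, and whether other tissue entered the pools was not tested. Stress genes had 0 of 17 past the rule, immediate early genes 1 of 11 in each direction, and red blood cell genes 0 of 2. Housekeeping genes had 1 of 13, B2m (10.74, 9.63, 10.07 and 9.97), and peripheral glia 1 of 6, Pmp22 (11.18, 9.90, 11.78 and 10.43), both toward the cerebellum. Imprinted genes had Grb10, a brake on growth factor receptors (11.19, 9.53, 10.46 and 10.40), and Plagl1 (11.43, 10.10, 10.24 and 10.65) toward the cerebellum and Rian (9.18, 10.33, 9.26 and 9.94), a noncoding RNA, toward the pontine nucleus, of 17 above the floor.

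Known cerebellar genes (Neurod1, Atoh1, En2, Calb1, Skor2 and Pax2) were higher in the array labelled cerebellum, and 11 Hox genes read above the floor in the pontine array alone. These genes belong to the comparison itself, so they describe the labels without an independent check. Array medians over all probe sets ran from 8.07 to 8.13. Of 12146 probe sets without a gene name, 625 (5.15%) were higher by at least 1 log2 unit in the pontine nucleus than in the cerebellum and 60 (0.494%) the other way, with no level floor applied. Most of the 625 were dim, and 363 of them lay below the 7.32 background limit in the pontine array too. Of the 3792 unnamed probe sets above the level floor, 93 (2.45%) were higher in the pontine nucleus and 37 (0.976%) in the cerebellum, against 1.88% and 4.49% of compared genes. Their part in the pontine differences was not tested.

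Genes at the edge of the size rule show where the counts end. Just inside it toward the cerebellum were Aurka, Ccnf and Chodl, each at 1.0, and just outside were Cdt1, Id4 and Metrn at 0.99. Toward the pontine nucleus, Cdh7 and Lmo3 differed by 1.0 and Fgf13 by 1.01, while Chst10, Fbxo10 and Hivep2 lay just outside at 0.99. In 28 of the 490 genes higher in the cerebellum the pontine level was below 7.32, and in 13 of the 205 genes higher in the pontine nucleus the cerebellar level was, so in those genes the difference was measured against background.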

How the data were processed

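RNA of 4 regions of the mouse brain was measured on 1 Affymetrix array per region. Trizol and RNeasy columns gave the RNA, which the Ambion WT Expression Kit and Affymetrix terminal labelling prepared for hybridisation, per the labels' protocols. Affymetrix Expression Console was used, per the submitters' processing notes; how it summarised and normalized the signals, and its version and build, is not given in the sources used here. Deposited by the authors is a table that holds log2 signals per probe set, a scale inferred from the values. Scaling between arrays can remove a general difference between regions, and weak signals compress toward background.

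Probe sets were named by the array's annotation table of 2016: of 35556, 21789 had 1 symbol, 1621 several (not used for genes) and 12146 no entry. Of the former, 21698 matched the RefSeq gene table by Entrez ID. For 999 genes with several probe sets the one with the highest mean gave the level. Depth does not apply to arrays, and the number of arrays limits the precision. No test was made. Genes were named by rank: the 15 largest differences in each direction (predicted genes, small RNAs, receptors of smell, pseudogenes and antigen receptor segments left out), the 15 and 8 widest shared gaps, and up to 4 members per list and direction. The 49 lists, the members and the rules were chosen with earlier results of these data known. Promoters came from RefSeq (GRCm38.p6, 250 bases before to 50 after the start), which held 8759 of the compared genes. The CANNTG search was added after seeing the data, and the other motifs, CAGCTG among them, were planned. Also planned was GGGTGGTC, a shortened Gli motif, found in 0.917% of all windows. It was in 0.599% of windows of genes higher in the cerebellum and 0.476% of those higher in the pontine nucleus. Simulated data served to test the size rule. Alternatives were other level floors, normalizations, probe set rules and a rule of 2 log2 units. Python 3.11.15, NumPy 2.4.6, pandas 2.3.3 and Matplotlib 3.10.9 were used.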

Additional observations from a re-analysis of the deposited data

Results flagged for a closer look

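Probe sets without a gene name lay outside the comparison of genes. Of these, 625 of 12146 were at least 1 log2 unit higher on the pontine array than on the cerebellar one, and 60 were lower by as much. The 625 had a median level of 7.05 on the pontine array, against 5.72 (cerebellum), 5.88 (bulb) and 5.93 (colliculus), so the pontine array was the high one, yet 363 of the 625 lay below the background limit of 7.32 there. Above the level floor were 93 of the 625, or 2.45% of the 3792 unnamed probe sets above it. Their genes are unnamed here, and the source of the signal was not tested.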

How the results depend on the processing

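Of 28 alternatives to the 4 main counts, 22 stayed within 1.5 times the value reported. With the floor at the 75th percentile, which leaves fewer genes to compare, 279 genes were higher in the cerebellum. With the floor taken on the cerebellar and pontine arrays alone, 24 genes were low in both regions. A rule of 2 log2 units left 70 genes higher in the cerebellum, 45 higher in the pontine nucleus, 1 high in both and 3 low in both, since a stricter rule keeps fewer genes. Quantile normalization gave 506 and 190 genes in the 2 directions. Without a floor the median of the Hox genes became 0.13 and that of cranial motor neuron genes 0.14, both opposite in sign, because most members lie below the floor and are then added. Of 194 alternatives to list medians, 22 more moved by over the background spread, and 13 in all changed sign, over 10 lists. Among them the choroid plexus median, -0.47 over 3 genes, became 0.125 without a floor and 1.545 with the floor at the 75th percentile. Of 60 alternatives for the named genes with the largest differences, 1 moved, Hmcn1. The alternatives were quantile normalization and the mean over probe sets. Only Hmcn1 among these genes had several probe sets, so the mean could not change the others and says nothing about their stability. With that mean the difference of Hmcn1 went from -2.54 to -1.42. No paired analysis was possible because each region had 1 array.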
